A study of Rattus norvegicus with 12 samples.

Results

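Circulating miRs were compared between day 21 and day 7 after Achilles tendon injury in rats that received vehicle and no drug. All 6 vehicle libraries among the 12 libraries of the series were taken: 3 labelled day 7 and 3 labelled day 21. Every animal was a wild-type (WT) female Wistar rat whose left Achilles tendon was injured with a needle. Vehicle, made of polyethylene glycol and Tween in sterile water, was injected daily into the abdomen from the day after surgery until the day before each animal was killed, so day 21 animals were older and had received more injections than day 7 animals. The remaining 6 libraries came from rats given rapamycin, which had been dissolved in dimethyl sulfoxide before dilution in polyethylene glycol and Tween, and entered the fits to estimate the spread. No uninjured serum was among the libraries, so that time since injury, age and number of injections cannot be told apart. Although the labels give tendon as the tissue, RNA was extracted from extracellular vesicles (EVs) isolated from serum on size exclusion columns. The paper cautions that such columns by themselves may not isolate EVs sufficiently. It adds that volumes were too small to characterise the EVs fully. Each library came from a different animal. No miR defines tendon, so that label could not be checked; miR-451-5p of red cells was abundant in every vehicle library, at 8227 to 77551 CPM (a count scaled to the library's total miR count with a further normalisation factor). The summed muscle list lay at 43.1 to 564 CPM in 5 vehicle libraries and at 8981 CPM in vehicle day 7 replicate 1.

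miRs are small non-coding RNAs that guide Argonaute proteins to messenger RNAs, mainly by pairing of the seed, the bases 2 to 8 of the mature miR, and thereby lower translation or stability of the target. Cells release miRs in EVs and bound to proteins, and serum holds material from blood cells, platelets, endothelium, liver and other organs. Several miRs are strongly enriched in 1 cell type, such as miR-451 in red blood cells, miR-150 in lymphocytes, miR-122 in hepatocytes and miR-133a in muscle. In a bulk measurement such as this, fewer EVs from a cell type, less of a miR per EV and less of a miR carried outside EVs cannot be told apart.

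The mature sequences below are those the results turn on, shown with the seed in capitals (RefSeq, build GRCr8). The first 4 share the seed ACAUUCA and form the miR-181 family, in which miR-181b-5p and miR-181d-5p differ at 1 of 23 bases, so that reads with 1 mismatch, which the mapping allowed, may be assigned to either.
miR-181a-5p: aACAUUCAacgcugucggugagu
miR-181b-5p: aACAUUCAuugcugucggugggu
miR-181c-5p: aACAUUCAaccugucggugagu
miR-181d-5p: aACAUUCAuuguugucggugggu
The next pair are the 3p arms of 2 different miR-181 precursors, and share the seed CCAUCGA.
miR-181a-1-3p: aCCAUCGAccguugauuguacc
miR-181c-3p: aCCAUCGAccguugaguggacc
The others are miRs with low unadjusted p or levels that separated the days, and miR-191a-5p, the most abundant miR.
miR-184: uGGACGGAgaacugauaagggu
miR-339-5p: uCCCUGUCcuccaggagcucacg
miR-342-3p: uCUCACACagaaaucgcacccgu
miR-125b-5p: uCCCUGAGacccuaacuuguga
let-7a-5p: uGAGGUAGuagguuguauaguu
miR-107-3p: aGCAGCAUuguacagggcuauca
miR-191a-5p: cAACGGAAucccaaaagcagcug
RefSeq held a mature sequence for 385 of the 426 miRs in the table.

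The vehicle libraries were shallow, and depth moved with the day. The total miR count was 95834, 42424 and 51391 in vehicle day 7 replicates 1, 2 and 3, and 32126, 28697 and 25032 in vehicle day 21 replicates 1, 2 and 3. The number of miRs detected was 354, 263 and 252 at day 7 and 217, 220 and 230 at day 21. On both measures every day 21 library lay below every day 7 library. Vehicle day 7 replicate 1 is not among the 10 libraries that the study carried into its own analysis, and the reason is not given in the sources used here. Values are therefore given without it (the study set, 2 day 7 and 3 day 21 libraries) and with it (all libraries, 3 and 3). The fits with all libraries also took in rapamycin day 7 replicate 2, which the study likewise left out. Through it the estimate of spread and the filter changed as well. A level here is in CPM after trimmed mean of M-values (TMM) scaling, and 3 counts in 1 vehicle library correspond to 31.3 to 120 CPM before that scaling. This floor covers counting error only.

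**Figure D1:**
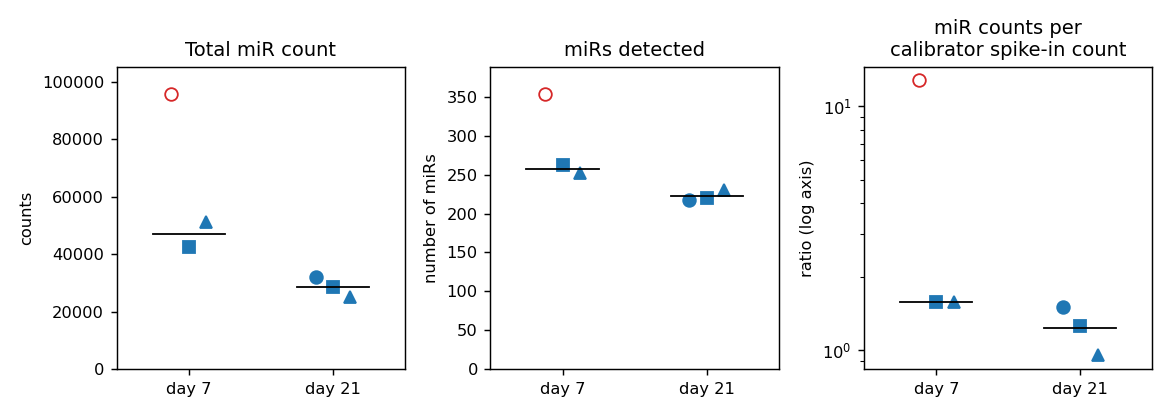
Total miR count, number of miRs detected and miR counts per calibrator spike-in count (log axis) in each vehicle library, by day post-injury. Circles, squares and triangles are replicates 1, 2 and 3, the open red circle is vehicle day 7 replicate 1, and lines are means of the other libraries. The open circle lies above every other library in all 3 panels, at 12.8 miR counts per calibrator count.

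Synthetic calibrator RNAs had been added to each RNA sample, which gives a measure of miR input that does not depend on sequencing depth. miR counts per calibrator count were 12.8, 1.58 and 1.58 in day 7 replicates 1 to 3 and 1.51, 1.26 and 0.955 in day 21 replicates 1 to 3. All day 21 values lay below all day 7 values, and the day 7 library outside the study set was far above the rest. In the study set the difference in mean log2 total count, day 21 minus day 7, was −0.71 (exact two-sided permutation p = 0.1, adjusted p = 0.25 over 5 measures), and that in miR per calibrator count was −0.38 (exact permutation p = 0.2, adjusted p = 0.333). With all libraries the differences were −1.06 and −1.38 (exact permutation p = 0.1 for each, adjusted p = 0.167). An exact p of 0.1 is the smallest that either set of vehicle libraries allows.

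The library outside the study set also stood apart in composition. Its log2 levels correlated across the miRs tested with those of the other 5 vehicle libraries at r = 0.656 to 0.797, whereas those 5 correlated with each other at 0.883 to 0.949, within a day (0.903 to 0.946) and between days (0.883 to 0.949) alike. The points of such a correlation are miRs of the same libraries and give no test. Of these miRs, 93 (65.5%) had a level in this library outside the range of the other 5, with 43 above and 50 below. Set against the 4 others of the study set, each of those 5 libraries was outside the range for 33.1% to 50.7%. Its deviations from the mean of the 10 study set libraries correlated at r = 0.907 across miRs with those of rapamycin day 7 replicate 2, the other library that the study did not carry forward. The ratio of miR-451-5p to miR-23a-3p counts, an index of red cell lysis in serum, was 0.443 in this library, 2.54 and 3.06 in the other day 7 libraries and 2.25, 5.34 and 2.60 at day 21, and the days overlapped. In the study set its log2 difference was 0.18 (exact permutation p = 0.9, adjusted p = 0.9).

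No miR passed the test between day 21 and day 7 in vehicle animals. In the study set 0 of 135 tested miRs (0%) were called higher or lower at an adjusted p under 0.05 by edgeR's quasi-likelihood test, and the adjusted p was 0.989 for each of them. Those with an unadjusted p under 0.05 were 3 (2.22%), namely miR-181d-5p, miR-184 and miR-339-5p. With all libraries 0 miRs were called (0%) of 66 with positive and 76 with negative log2 fold changes, the smallest adjusted p was 0.586, and 8 (5.63%) had an unadjusted p under 0.05. DESeq2 called 1 miR in the study set (miR-181d-5p) and 0 with all libraries, and limma-voom called 0 in both. Without the filter on low counts edgeR called 1 miR in the study set (miR-184, lower at day 21) and 2 with all libraries (miR-133a-3p and miR-378b, both lower). With the study's independent filtering it called miR-184 in the study set, and miR-133a-3p, miR-378b and miR-184, all lower, with all libraries.

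What the data could and could not show depended on abundance. Over the 135 miRs of the study set, 63 log2 fold changes were positive and 72 negative, with a median of −0.03 and a median standard error (SE) of 0.54. Scaled to the calibrator spike-ins instead, 19 were positive and 116 negative in the study set, with a median of −0.38, and 2 and 140 with all libraries, with a median of −2.39, so the directions below are relative to the other miRs of a library. For 33 miRs the 95% interval lay within a 2-fold change in either direction, and for 94 within a 4-fold change. Of the 45 most abundant miRs, from 4071 CPM upwards, 28 had an interval within 2-fold and the median SE was 0.31. None of the 45 least abundant did, and there the median SE was 0.96. With all libraries 12 intervals lay within 2-fold.

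**Figure D2:**
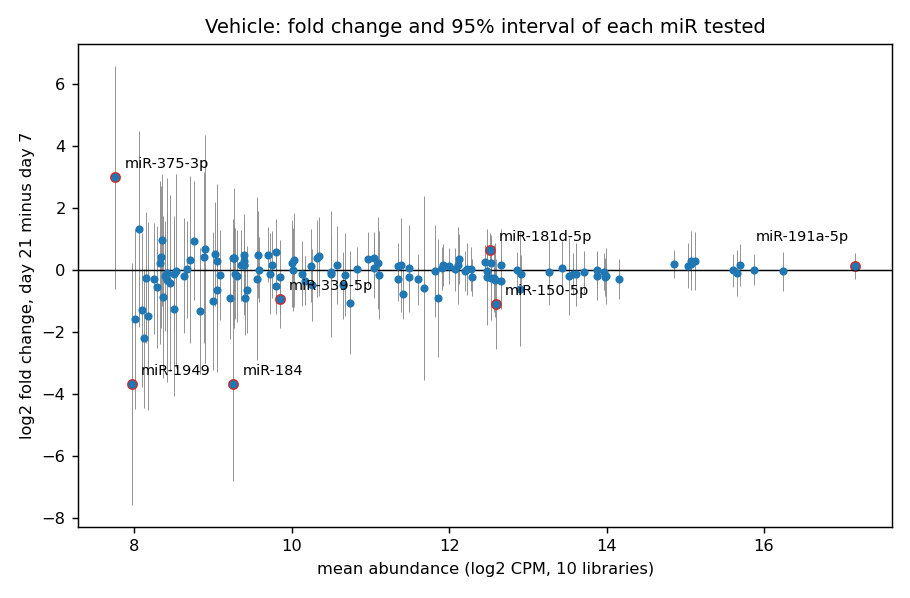
Log2 fold change (day 21 minus day 7) against mean abundance in log2 CPM for each of the 135 miRs tested in the study set. Vertical lines are 95% intervals, and 7 named miRs are filled red points. Intervals narrow to the right: the median SE is 0.96 in the 45 least abundant and 0.31 in the 45 most abundant.

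The most abundant miRs had intervals within 2-fold in the study set and wider ones with all libraries. miR-191a-5p, which lies within Dalrd3 and is abundant in blood cells, had levels of 158260 and 178704 CPM in the 2 day 7 libraries of the study set and 207289, 202476 and 139446 CPM at day 21. Its days overlapped, with a log2 fold change of 0.13 (95% interval −0.28 to 0.54). miR-21-5p, a miR raised in many injured and fibrotic tissues, was at 81800 and 108593 CPM at day 7 and 95976, 101906 and 75060 CPM at day 21, a log2 fold change of −0.04 (−0.68 to 0.60). miR-92a-3p of the miR-17-92 cluster had 0.01 (−0.49 to 0.51), miR-26a-5p, a restrainer of growth, −0.09 (−0.82 to 0.65) and miR-16-5p, abundant in red cells, −0.01 (−0.54 to 0.52). With all libraries the upper limits passed 2-fold for miR-191a-5p at 0.42 (−0.41 to 1.26), miR-21-5p at 0.29 (−0.66 to 1.25), miR-92a-3p at 0.42 (−0.61 to 1.45) and miR-16-5p at 0.39 (−0.69 to 1.47), and miR-26a-5p had −0.12 (−0.93 to 0.70).

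In 21 of 135 miRs of the study set the levels of the days did not overlap: 5 (3.7%) were higher in all 3 day 21 libraries than in both day 7 libraries, and 16 (11.9%) were lower. With all libraries 4 (2.82%) were higher and 11 (7.75%) lower. The labels of the study set's vehicle libraries can be arranged in only 10 ways, and those of all vehicle libraries in 20. Full separation of a miR is therefore common without any change with time, and these shares were not tested. The miRs that separated the days upwards in both sets were miR-181d-5p, miR-107-3p, miR-98-5p and miR-130b-3p, and those that did so downwards in both included let-7a-5p, let-7c-5p, miR-125b-5p, miR-181a-5p, miR-101a-3p, miR-101b-3p and miR-199a-5p. The study set is part of all libraries, and the levels are the same in both. A miR tested in both sets that separated the days with all libraries had to do so in the study set too. Separation in both sets is therefore no second line of support.

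The lymphocyte list, of miRs abundant in B and T cells (miR-150, miR-342, miR-155 and the miR-181 family), held the miR with the smallest p. Of its 15 members 10 were tested in the study set, 0 were called, 4 had positive and 6 negative log2 fold changes, and the median was −0.18 beside −0.03 for all miRs. With all libraries 5 of 9 were positive and the median was 0.11 beside −0.07. miR-181d-5p, from a family known for tuning receptor signalling in developing T cells, was at 4854 and 5678 CPM in day 7 replicates 2 and 3, and at 8146, 9009 and 7405 CPM at day 21. Replicate 1 of day 7 was lower still, at 896 CPM, so that adding it left the days apart. The log2 fold change was 0.65 (SE 0.24, edgeR unadjusted p = 0.0212, adjusted p = 0.989) in the study set and 1.11 (SE 0.55, unadjusted p = 0.0662, adjusted p = 0.586) with all libraries. DESeq2 gave 0.69 with an adjusted p of 0.0335 in the study set, and over all 16 alternatives there the adjusted p ran from 0.0335 to 1. Its raw counts in the study set were 210 and 242 at day 7 and 239, 209 and 197 at day 21, and did not separate the days before scaling to depth.

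The other miR-181 arms lay on both sides of 0. miR-181c and miR-181d lie within 1 cluster (GRCr8 chr19:40888314-40888506, plus strand, in no other annotated gene), and its 3 tested arms had positive log2 fold changes. miR-181c-5p was at 3074 and 4716 CPM at day 7 and 6748, 4828 and 3045 CPM at day 21, with 0.36 (SE 0.37). miR-181c-3p was at 670 and 751 CPM against 1227, 1035 and 714 CPM, with 0.50 (SE 0.40). For both of these arms day 21 replicate 3 lay within the day 7 range or below it. miR-181b-5p, 1 base from miR-181d-5p, was at 3652 and 5584 CPM at day 7 and 4567, 3880 and 5450 CPM at day 21, with 0.05 (SE 0.32). miR-181a-5p, the most abundant arm, was at 19069 and 19241 CPM at day 7 and 17075, 14226 and 17027 CPM at day 21, with −0.22 (SE 0.28), and its days did not overlap. miR-181a-1-3p, the opposite arm of a miR-181a precursor, rested on 19 and 12 counts at day 7 and 4, 2 and 0 at day 21, with −2.20 (SE 1.01, edgeR unadjusted p = 0.054).

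**Figure D3:**
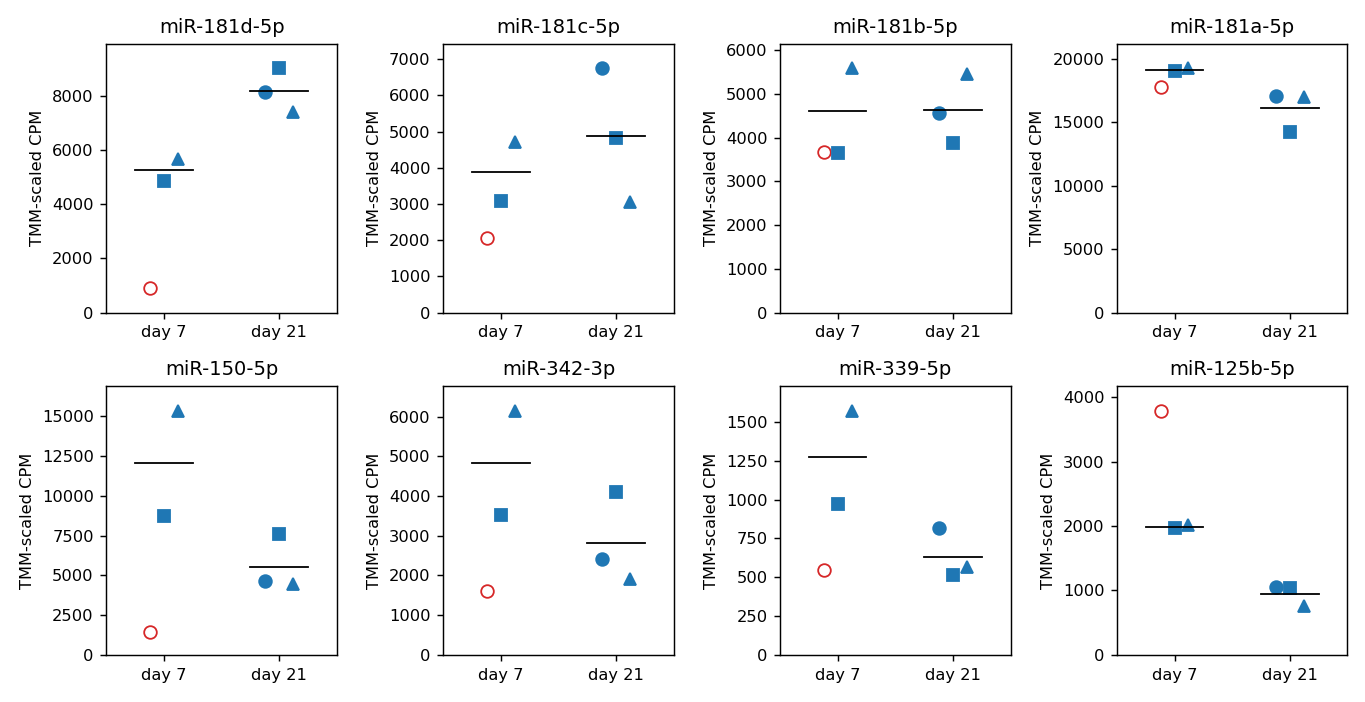
TMM-scaled CPM of 8 miRs in each vehicle library, with circles, squares and triangles for replicates 1, 2 and 3, the open red circle for vehicle day 7 replicate 1, and lines for means of the other libraries. miR-181d-5p lies higher and miR-125b-5p lower in all 3 day 21 libraries than in any day 7 library, whereas for miR-150-5p, miR-342-3p and miR-339-5p the open circle lies among or below the day 21 libraries.

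The classical lymphocyte miRs had negative values with wide intervals. miR-150-5p, which represses Myb in mature B and T cells, was at 8714 and 15346 CPM at day 7 and 4635, 7587 and 4435 CPM at day 21. The day 21 libraries all lay lower, with a log2 fold change of −1.10 (95% interval −2.55 to 0.36). In replicate 1 of day 7 it was at 1440 CPM, below all of them, and with it the value was −0.61. miR-342-3p, hosted by Evl and abundant in lymphocytes, was at 3513 and 6148 CPM against 2420, 4095 and 1917 CPM, with −0.77 (−1.59 to 0.05) in the study set and −0.42 with all libraries. Summed over the list the level was 28148, 44748 and 58614 CPM at day 7 and 45330, 45910 and 41007 CPM at day 21, and the days overlapped.

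miR-184, a miR of epithelia, had the largest negative log2 fold change in the study set, and rested on few counts. It was at 555 and 2980 CPM in day 7 replicates 2 and 3, and at 204, 0 and 150.3 CPM (6, 0 and 4 counts) at day 21. Day 7 replicate 1 had 7 counts (58.6 CPM), so that the days overlapped with all libraries. The log2 fold change was −3.69 (SE 1.40, edgeR unadjusted p = 0.0252) in the study set and −3.25 (SE 1.70) with all libraries. Without the filter, where 365 miRs were tested in place of 135, the adjusted p of miR-184 in the study set was 0.00436, and over its alternatives it ran from 0.00436 to 1. Independent filtering as in the study gave the same adjusted p there. With all libraries edgeR with that filtering also called miR-184, at −3.15 with an adjusted p of 0.0494.

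miR-339-5p, which lies within C12h7orf50, was the remaining miR with a low unadjusted p. Its levels were 971 and 1572 CPM (42 and 67 counts) at day 7 and 818, 517 and 564 CPM (24, 12 and 15 counts) at day 21. The days did not overlap in the study set, with a log2 fold change of −0.95 (SE 0.41, edgeR unadjusted p = 0.0432). The day 7 library outside the study set lay among the day 21 libraries, and with it the value was −0.69 (SE 0.48).

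The myeloid and pan-leukocyte list (miR-142, miR-223 and miR-146) had 5 of 7 members tested, with 0 called and a median of −0.27. All 5 had negative values, from −0.49 to −0.13. miR-223-3p, the most abundant and characteristic of neutrophils and platelets, was at 11534 and 17551 CPM at day 7 and 14212, 15993 and 9058 CPM at day 21, with −0.13 (SE 0.30). miR-142-5p, of haematopoietic cells, had the smallest p of the list at −0.48 (SE 0.49). Day 7 replicate 1 held 4620 CPM of this list against 21658 and 32709 CPM in the other day 7 libraries, and with it 3 of the 5 values were positive.

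The red blood cell list had 7 of 14 members tested, 0 called, 5 positive and 2 negative values and a median of 0.04. miR-451-5p, which matures through Argonaute 2 in red cell precursors, was at 35965 and 55258 CPM at day 7 and 35480, 77551 and 40368 CPM at day 21, with 0.17 (SE 0.30). miR-486, also abundant in red cells, had the smallest p of the list at 0.29 (SE 0.42). Summed over the list the level was 170788 and 235276 CPM at day 7 and 193997, 287571 and 161622 CPM at day 21, and overlapped. Day 7 replicate 1 was below all 5 at 43715 CPM, and with it all 7 values were positive, with a median of 0.42.

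Liver miRs varied widely among day 21 animals. miR-122-5p, made almost only in hepatocytes, was at 2959 and 3614 CPM at day 7 and 1159, 216 and 4811 CPM at day 21, so that the day 21 animals spanned the day 7 values, and the log2 fold change was −0.58 (SE 1.33). With all libraries it was −1.37 (SE 1.15). miR-192-5p ran in the same order at day 21, with 511, 129.3 and 902 CPM against 647 and 657 CPM at day 7. miR-148a-3p, which is also expressed outside the liver, was at 3352 and 5538 CPM against 4192, 4957 and 5450 CPM, with 0.17 (SE 0.30). Of the 8 list members 4 were tested, 0 were called and the median was −0.43, or −0.83 with all libraries.

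Among miRs tied to matrix and fibroblasts, no member was called. The miR-29 family, which represses collagen messenger RNAs, had 2 of 6 arms tested: miR-29a-3p was at 12574 and 16754 CPM at day 7 and 10532, 15303 and 12667 CPM at day 21, with −0.17 (SE 0.35), and miR-29c-3p had −0.30 (SE 0.37). With all libraries miR-29a-3p had −0.91 (SE 0.47). In the fibroblast and fibrosis list 5 of 12 were tested, with a median of −0.04, or 0.15 with all libraries. The medians of the miR-29 family were −0.24 and, with all libraries, −0.996. The most abundant fibroblast member is miR-21-5p, described above. miR-31a-5p had the smallest p of that list in the study set, at 0.95 (SE 0.86), resting on 4 and 27 counts at day 7. miR-199a-5p, abundant in mesenchymal cells, was at 509 and 305 CPM at day 7 and 239, 43 and 301 CPM at day 21, with −1.0 (SE 1.0), and the days did not overlap although 305 and 301 CPM lay close.

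The miR-99/100 and miR-125 list includes miRs known to target mTOR. Of its 11 members 5 were tested, 0 were called, 4 had negative values and the median was −0.20. With all libraries all 6 tested members had negative values and the median was −1.42. miR-125b-5p was at 1965 and 2018 CPM at day 7 and 1057, 1035 and 752 CPM at day 21. Day 7 replicate 1 was higher, at 3791 CPM, so that adding it left all day 21 libraries below all day 7 libraries. The log2 fold change was −1.06 (SE 0.75, edgeR unadjusted p = 0.188) in the study set and −1.45 (SE 0.67, unadjusted p = 0.048, adjusted p = 0.586) with all libraries. miR-99a-5p, the most abundant member, was at 9176 and 4576 CPM against 4294, 1638 and 7405 CPM, with −0.60 (SE 0.82), and its days overlapped. With all libraries it had −1.53 (SE 0.78).

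The let-7 family with miR-98, whose 5p arms share the seed GAGGUAG and repress growth genes, had 8 of 17 arms tested, 7 with that seed and let-7d-3p, with 4 positive and 4 negative values and a median of −0.09 in either set. let-7i-5p, the most abundant, was at 26951 and 48876 CPM at day 7 and 40013, 50738 and 31610 CPM at day 21, with 0.13 (SE 0.33). let-7a-5p was at 901 and 1009 CPM at day 7 and 545, 647 and 338 CPM at day 21, with −0.89 (SE 0.53), and rested on 9 to 43 counts. miR-98-5p stood on the other side of 0, at 2265 and 2276 CPM at day 7 and 2931, 2974 and 2706 CPM at day 21, with 0.35 (SE 0.39). let-7c-5p and let-7f-5p each differ from let-7a-5p at 1 base of 22, so their assignment is uncertain in the same way as for miR-181b-5p and miR-181d-5p.

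The miR-17-92 and paralogue clusters, proliferation-linked miRs of blood cells, had 9 of 19 arms tested, 0 called and a median of 0.01, or 0.36 with 10 of 11 positive with all libraries. The 5 tested miRs of the miR-17-92 cluster itself had positive values with a median of 0.20. miR-20a-5p had the largest at 0.39 (SE 0.37), and miR-106b-3p of the paralogue cluster in Mcm7 had −0.89 (SE 0.60) and the smallest p. miR-103-3p and miR-107-3p, which lie in pantothenate kinase genes, had 0.20 (SE 0.20) and 0.26 (SE 0.24). Levels of miR-107-3p were 4854 and 5467 CPM at day 7 and 6033, 6552 and 5788 CPM at day 21, a small difference in which the days did not overlap. It differs from miR-103-3p at 1 base of 23, so reads may be assigned to either. In the miR-30 family, known regulators of autophagy, 7 of 10 were tested with a median of −0.07, or −0.66 with 6 negative with all libraries: miR-30a-5p, the most abundant, had −0.07 (SE 0.47) and miR-30b-5p, with the smallest p, −1.31 (SE 0.91). With all libraries they had −1.10 (SE 0.60) and −1.27 (SE 0.81).

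Vascular miRs had 7 of 9 tested, with 2 positive and 5 negative values and a median of −0.20. With all libraries all 8 tested had negative values, with a median of −0.35. miR-143-3p of smooth muscle, the most abundant, was at 22143 and 17903 CPM at day 7 and 11145, 15001 and 25747 CPM at day 21, with −0.20 (SE 0.41). miR-126a-5p of endothelium had −0.33 (SE 0.54) and the smallest p. In the miR-23/24/27 list 7 of 11 were tested with a median of −0.04 (−0.15 with all libraries), and miR-23a-3p, the most abundant, had −0.04 (SE 0.26) and miR-27a-5p, with the smallest p, 1.33 (SE 1.41). The miR-26 and miR-101 list had 4 of 7 tested and a median of −0.10 (−0.18 with all libraries), and miR-101b-3p had −0.22 (SE 0.27) with non-overlapping days. It differs from miR-101a-3p at 1 base of 21, so reads may be assigned to either. The miR-191 and miR-425 list, and the EV-abundant list of miR-320, miR-423, miR-484 and miR-328, had 3 of 5 and 5 of 6 tested and medians of 0.02 and −0.02 (0.33 and 0.21 with all libraries), with miR-425-5p at 0.02 (SE 0.25) miR-320-3p at −0.02 (SE 0.28) and miR-328a-3p at −0.55 (SE 0.89).

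Of the epithelial and endocrine list 5 of 12 were tested, with values from −3.69 (miR-184) to 3.00 and a median of −1.27, or −2.26 with all libraries. Its summed level was 5164, 3190 and 4834 CPM at day 7 and 1568, 2026 and 2330 CPM at day 21, and the days did not overlap with all libraries or, as follows from that, in the study set. No other sum of the 21 lists separated the days, and this separation was not tested. In day 7 replicate 3 most of the sum was miR-184. miR-203a-3p of skin, the most abundant, had 0.44 (SE 0.57). miR-375-3p, of pancreatic islets and gut endocrine cells, gave the 3.00 (SE 1.61) on 2 and 0 counts at day 7 and 3, 3 and 11 at day 21. The 26 counts of day 7 replicate 1 (218 CPM) lay within the day 21 range of 102 to 413 CPM. In the brain list 3 of 9 were tested, all positive with a median of 0.50, or 2 positive with a median of 0.84 with all libraries. Its most abundant member, miR-128-3p, which is also abundant in blood, was at 39918 and 42588 CPM at day 7 and 61689, 55393 and 35181 CPM at day 21, with 0.31 (SE 0.43), and miR-383-5p had 0.50 (SE 0.48). Of 37 miRs of the imprinted Dlk1-Dio3 cluster none had enough counts to be tested (miR-434-3p, the most abundant, had 7 and 1 counts at day 7 and 3, 0 and 0 at day 21), and their summed level was 693 and 164 CPM at day 7 and 374.9, 431.1 and 375.9 CPM at day 21. Across the 21 lists, 14 medians were negative and 6 positive in the study set, against a median of −0.03 over all miRs. With all libraries 11 were negative and 9 positive, against a median of −0.07.

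**Figure D4:**
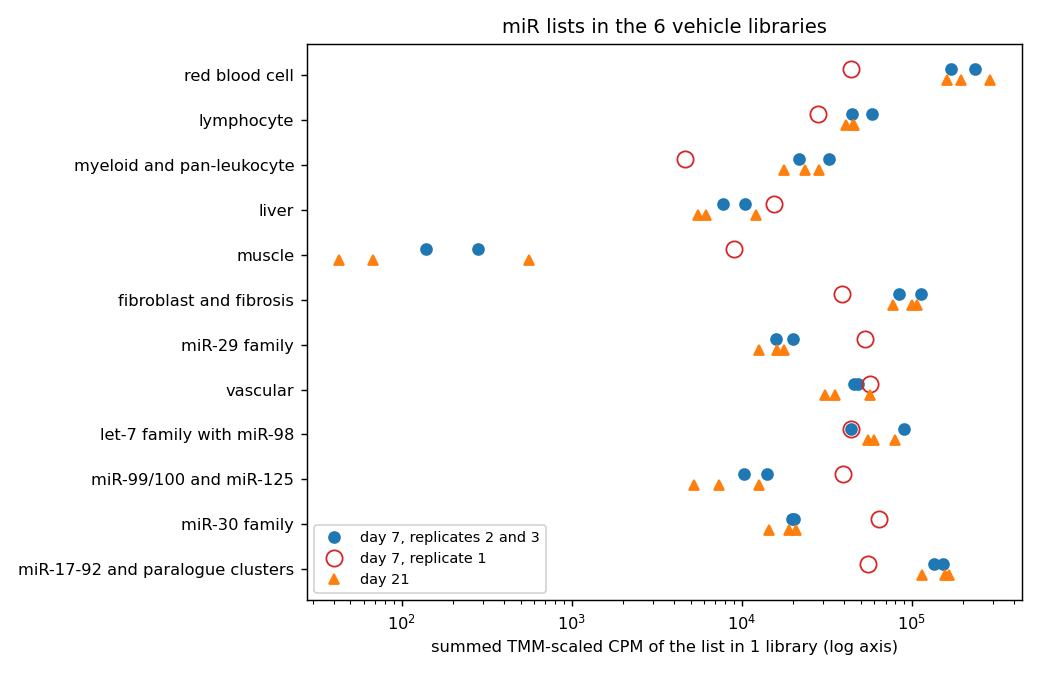
Summed TMM-scaled CPM (log axis) of 12 miR lists in each of the 6 vehicle libraries, with filled circles for day 7 replicates 2 and 3, open red circles for day 7 replicate 1 and triangles for day 21. Filled circles and triangles lie close or interleave, while the open circle lies to the left for red cell and myeloid lists and to the right for muscle, miR-29, miR-30 and miR-99/100 lists.

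Including vehicle day 7 replicate 1, together with rapamycin day 7 replicate 2 in the estimate of spread, changed which miRs had low p. The largest shift was in miR-133a-3p, the 1 miR of 9 in the muscle list that was tested, which had 1026 counts (8587 CPM) in that library, 5 and 6 counts in the other day 7 libraries and 2, 1 and 13 at day 21. Its log2 fold change was 0.69 (SE 1.65) in the study set and −3.87 (SE 1.73, edgeR unadjusted p = 0.0436, adjusted p = 0.586) with all libraries. Without the filter its adjusted p with all libraries was 9.5e-05, a call that rests on this library. The other muscle miRs did not reach that level: miR-133b-3p had 26 counts, miR-499-3p 10, miR-1-3p 2 and miR-206-3p 1 in the same library. miR-133b-3p and miR-499-3p nevertheless had more counts there than in any of the other 5 vehicle libraries. miR-1-3p did not, with 0 to 5 counts in those 5.

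miR-378b had 119, 12 and 1 counts at day 7 and 0 in every day 21 library. Its mean day 7 level over all libraries, 432 CPM, was at least 3.77-fold higher than the mean floor of 3 counts a library at day 21 (115 CPM). Most of that level came from replicate 1, so the bound does not hold for the study set. There day 7 replicate 3, at 1 count, lay below the floor itself, and miR-378b did not pass the filter. miR-378a-3p, from the metabolic regulator gene Ppargc1b, was at 18397 CPM in that library, 3352 and 2792 CPM in the other day 7 libraries and 1977, 2242 and 4698 CPM at day 21. Its log2 fold change was −0.02 (SE 0.67) in the study set and −1.46 (SE 0.75) with all libraries. miR-29c-3p (9257 CPM in replicate 1) moved from −0.30 to −1.08 (SE 0.49) and miR-199a-5p (2235 CPM) from −1.0 to −2.37 (SE 0.96) when the library was added. In the opposite direction miR-128-3p was at 2745 CPM there against 35181 CPM or more elsewhere, and moved from 0.31 to 0.84.

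**Figure D5:**
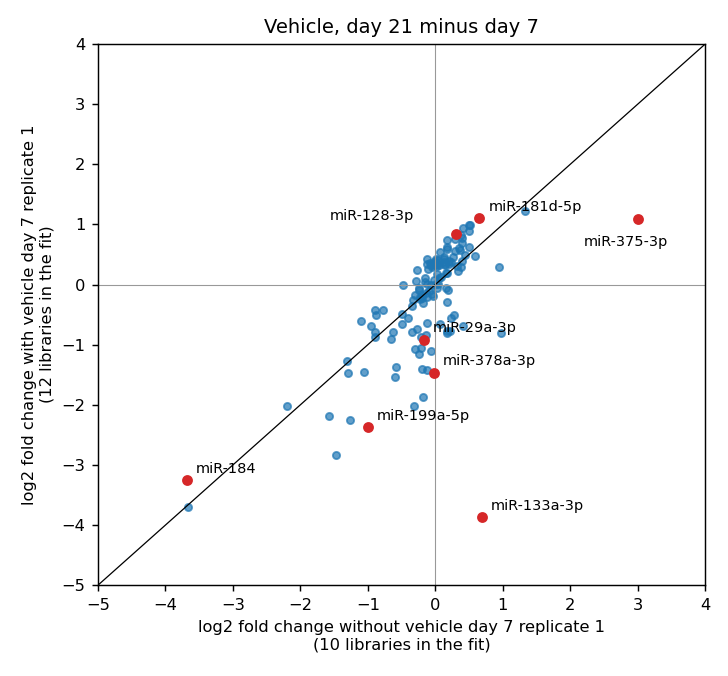
Log2 fold change (day 21 minus day 7) with vehicle day 7 replicate 1 against that without it, 1 point per miR tested in both sets, with the line of equality and 8 named miRs in red. The fit with it also held rapamycin day 7 replicate 2. miR-133a-3p lies at 0.69 without and −3.87 with the library, while miR-184 and miR-181d-5p keep their sign.

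Whether a time change differed between vehicle and rapamycin animals was tested as an interaction. No miR passed: 0 of 135 in the study set (0%, 3 at an unadjusted p under 0.05, smallest adjusted p 0.827) and 0 with all libraries (0%, 1 at an unadjusted p under 0.05, smallest adjusted p 0.989). DESeq2 and limma-voom also called 0 in both sets. For miR-339-5p the change was −0.95 with vehicle and 1.14 (SE 0.44) with rapamycin, a difference of −2.08 (SE 0.60, edgeR unadjusted p = 0.00613, adjusted p = 0.827). miR-150-5p had −1.10 with vehicle and 1.26 (SE 0.70) with rapamycin, a difference of −2.36 (SE 0.96, unadjusted p = 0.034, adjusted p = 0.957), and without the filter its difference was −2.28 with an adjusted p of 0.0406. miR-342-3p gave −1.23 (SE 0.54, unadjusted p = 0.0449, adjusted p = 0.957). For miR-181d-5p the values were 0.65 with vehicle and 0.57 (SE 0.24) with rapamycin, and the difference of 0.09 (SE 0.33) covered 0. The time changes under vehicle and rapamycin, which share no library, correlated across the 135 miRs at r = 0.146 and had the same sign in 58.5%. With all libraries, where each treatment gains a day 7 library of the unusual composition described above, r was 0.556.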

How the data were processed

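Small RNA was sequenced from serum EVs with the RealSeq Biofluids kit, without molecular identifiers; the sources differ on the sequencer. Per the labels and methods, the authors trimmed reads with cutadapt 3.3, mapped them with Bowtie 1.3.0 to the rat genome (mRatBN.7.2) and miRBase, allowing 1 mismatch to a miR, and deposited raw counts per mature miR, with spike-ins as separate rows. Such kits ligate adapters unequally and near-identical miRs can exchange reads, so levels of different miRs are not strictly comparable. No depth other than the miR and spike-in counts was used.

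Spike-in rows were dropped and counts were tested with edgeR 4.0.16 (quasi-likelihood, TMM, filterByExpr with a minimum count of 10, 1 mean per treatment and day; R 4.3.3), adjusted by the Benjamini-Hochberg method over all miRs tested, with a call at adjusted p under 0.05. This fixed filter replaced the study's independent filtering, which was an alternative, as were DESeq2 1.42.0 and limma-voom 3.58.1, other scalings, a replicate block and leaving out libraries. SEs were derived from the F statistic. Levels in CPM were TMM-scaled over all 12 libraries in both sets. Single values were compared by exact permutation of libraries. Correlations used log2(CPM + 50). The fitting script was tested on simulated counts. Replicates of a day differed by more than sampling noise. Named miRs were those called, then those with the smallest unadjusted p in the study set up to 20, the most abundant and the smallest p of each list, and the 5 most abundant; miR-98-5p, miR-130b-3p, miR-378b and others that separated the days or shifted with 1 library were added after their values were seen. The comparison and the 21 lists, which were drawn from general knowledge, were chosen with earlier results of these data known.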

Additional observations from a re-analysis of the deposited data

How the results depend on the processing

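Of 110 alternatives of the main results 102 were counted as unchanged. For calls this meant a count that stayed at 0, and for separation of the days a similar number of miRs. For depth measures it meant a shift smaller than the pooled standard deviation within a day. By that rule miR counts per calibrator count were unchanged at −1.38 with all libraries and −0.38 without day 7 replicate 1. The count of miRs called for day 21 against day 7 moved from 0 to 1 in the study set without a filter, with independent filtering and with DESeq2, and from 0 to 2 without a filter and 3 with independent filtering with all libraries. For the difference between vehicle and rapamycin it moved to 1 in the study set without a filter and with independent filtering, and to 1 with all libraries with independent filtering (miR-133a-3p, −3.64). The causes were not tested. Leaving out each library in turn gave 0 calls in every case. Of 757 alternatives of single miRs 742 kept the direction.

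Scaling to the calibrator spike-ins set the median log2 fold change of all miRs to −0.38 in the study set and −2.39 with all libraries, with 0 called in both and unadjusted p under 0.05 for 6 and 63. Under it miR-107-3p was at −0.11 in the study set. With all libraries miR-181d-5p was at −0.080, miR-375-3p at −2.24, miR-33-5p at −2.16, miR-181c-3p at −0.62, miR-31a-5p at −2.75 and miR-107-3p at −1.64. With all libraries their positive direction therefore holds relative to other miRs and not per calibrator. In the study set all of these but miR-107-3p stayed positive under every alternative. Their lowest values there were 0.28 for miR-181d-5p, 2.06 for miR-375-3p, 0.19 for miR-33-5p, 0.16 for miR-181c-3p and 0.26 for miR-31a-5p. Leaving out each library in turn turned the direction of some miRs. In the study set miR-30a-3p ran from −0.89 to 0.10 and miR-429 from −3.40 to 0.059, both positive without day 7 replicate 2. With all libraries miR-342-3p ran from −0.77 to 0.16, miR-150-5p from −1.01 to 0.16 and miR-106b-3p from −0.86 to 0.14, positive without day 7 replicate 3 (miR-106b-3p also without day 21 replicate 1), miR-33-5p from −0.026 (without day 21 replicate 2) to 0.73 and miR-31a-5p from −0.12 (without day 7 replicate 2) to 1.03.

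Replicate numbers did not pair the animals (r of deviations −0.18, 0.06 and −0.47), and a replicate block gave 0 calls in each of the 4 comparisons. Day 7 rests on 2 libraries in the study set, and 3 counts correspond to up to 120 CPM. Intervals of low miRs were wide. Calls changed with the filter for miR-184, miR-133a-3p and miR-378b and, in the difference between vehicle and rapamycin, also for the abundant miR-150-5p. Why they changed was not tested.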

Other observations

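Other miRs among the 20 with the smallest unadjusted p rested on few counts. miR-1949, hosted by Matr3, had 23, 15 and 3 counts at day 7 and 0, 0 and 1 at day 21, with a log2 fold change of −3.67 (SE 1.75) in the study set and −3.70 (SE 1.57) with all libraries, and its days did not overlap in either set. miR-224-5p, within Gabre on the X chromosome, had 75, 14 and 9 counts at day 7 and 6, 0 and 1 at day 21, with −1.58 (SE 1.3) and −2.18 (SE 1.12). miR-33-5p, which lies in Srebf2 and restrains cholesterol export, was at 971, 693 and 821 CPM at day 7 and 1023, 1854 and 601 CPM at day 21, with 0.59 (SE 0.47), and its days overlapped. miR-1843a-5p had −1.3 (SE 1.12), miR-30a-3p −0.50 (SE 0.42) and miR-429, of the epithelial miR-200 family, −1.48 (SE 1.36). By the exact two-sided permutation test of log2(CPM + 1), 4 of the 20 reached the smallest p of 0.1 in the study set (adjusted p 0.333 to 0.6 over the 20) and 7 with all libraries (adjusted p 0.286 to 0.9).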
